A study of Mus musculus with 5 samples.

Results

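Perineuronal nets are lattices of extracellular matrix that enwrap the cell bodies and proximal dendrites of certain neurons, above all parvalbumin interneurons and, in the hippocampus, pyramidal cells of area CA2. Their core is hyaluronan, to which chondroitin sulfate proteoglycans of the lectican family bind at one end. Link proteins clamp that bond, and tenascin-R joins the other ends of the lecticans into a mesh. The same proteins also form the looser matrix around synapses and at nodes of Ranvier, and enzymatic removal of nets is a classical way to reopen plasticity in adult cortex.

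Here, 10 genes of this matrix were followed by symbol through every library of the series. They are the lecticans Acan, Bcan, Ncan and Vcan, the link proteins Hapln1, Hapln2 and Hapln4, the tenascins Tnr and Tnc, and the receptor phosphatase Ptprz1. All 10 were found among the 23420 genes of the files. All 10 also had a mean value of at least 5, as did 13550 genes of the series, which are called expressed genes here.

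The study asked how running, and enrichment without running, alter transcription in the adult dentate gyrus (DG). RNA of microdissected whole DG of wild-type male CD1 mice, an outbred strain, was sequenced in 5 libraries, 1 per group. The LD mice (n = 8) lived alone with a disk that could not turn, the RUN mice (n = 8) lived alone with a turning disk, and the CE mice (n = 8) lived in groups with a fixed disk and tunnels. RNA of the RUN mice was further pooled as L-RUN, the 4 mice with the lowest running distances, and H-RUN, the 4 with the highest. The labels give an age of 4 months for every group, and housing lasted 4 weeks. CE differed from LD in company as well as in tunnels, so these cannot be told apart. Each library was a pool, so the spread between mice was not measured and no p-value can be given.

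Values are regularized log (rlog) values on the log2 scale, which shrink the changes of lowly expressed genes, and a difference of 0.3 or more in size is the cut-off used by the study's methods. The depth of the libraries is unknown. The RUN pool drew on all 8 runners, and the departure of its value from a 1-to-1 mixture of both smaller pools gave a technical SD of 0.036 for a difference between libraries, between 0.022 and 0.047 by level of expression. This SD covers library preparation and sequencing but not differences between mice. All 4 differences from LD share the 1 LD library, and L-RUN, H-RUN and RUN share mice. In bulk tissue, fewer cells of a type and less RNA per cell cannot be told apart.

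**Figure D1:**
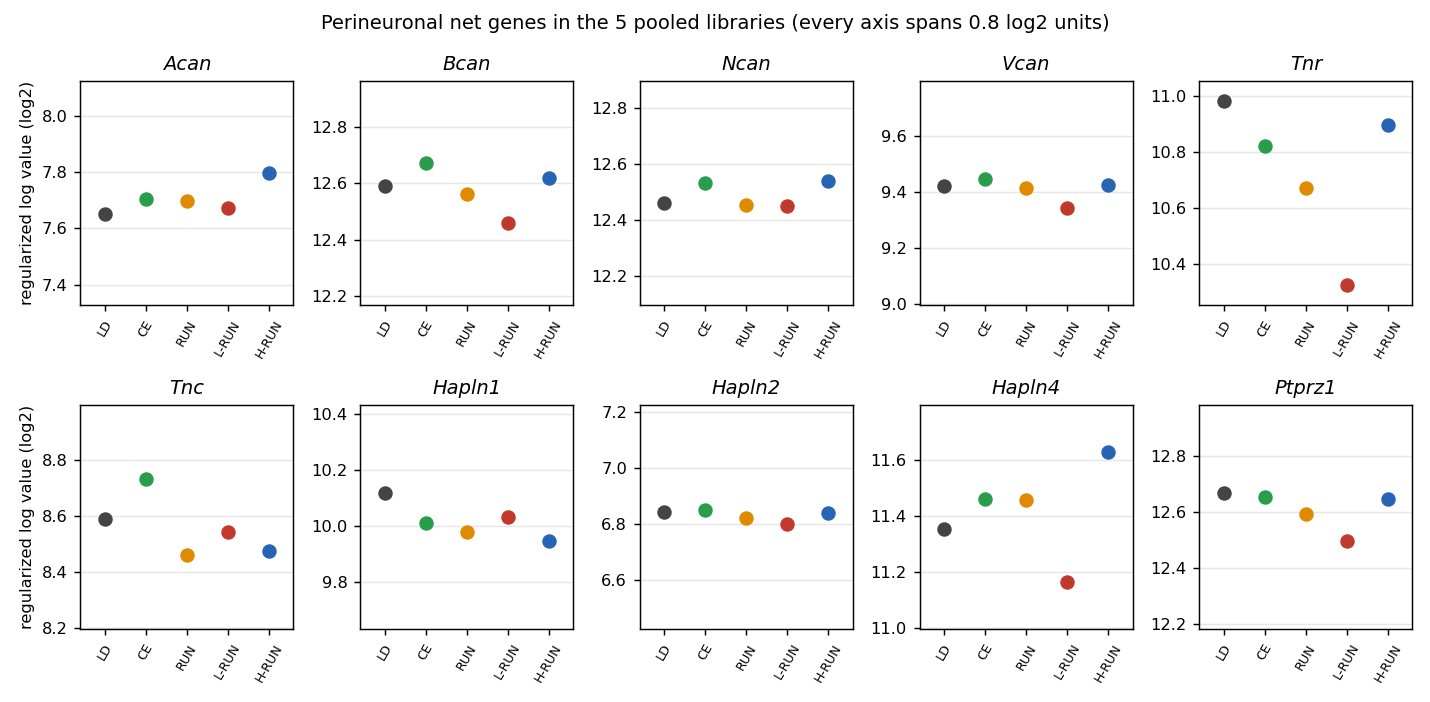
Regularized log value (log2) of each of the 10 perineuronal net genes in the LD, CE, RUN, L-RUN and H-RUN libraries, 1 point per pooled library, with every vertical axis spanning the same width. Tnr and Hapln4 had the widest ranges, 0.66 and 0.46, with L-RUN lowest in both, whereas Hapln2 spanned 0.049.

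Tnr had the largest differences of the 10 genes. It encodes tenascin-R, a glycoprotein of the adult nervous system made largely by oligodendrocyte lineage cells and some neurons, which binds the C-terminal lectin domains of the lecticans. Its rlog value was 10.98 in LD, 10.82 in CE, 10.33 in L-RUN, 10.67 in RUN and 10.90 in H-RUN. L-RUN was lowest by a wide margin, and RUN lay between its 2 pools. The difference from LD was -0.66 in L-RUN (-36.5% on the linear scale, 20th lowest of 13550 expressed genes), -0.31 in RUN (-19.2%), -0.16 in CE and -0.09 in H-RUN, with a technical SD of 0.03. H-RUN exceeded L-RUN by 0.57 (48.4%), the 6th highest difference among expressed genes. In the order L-RUN, RUN, CE, H-RUN, LD, the steps from L-RUN to RUN and from RUN to CE were larger than 3 technical SDs, and those from CE to H-RUN and from H-RUN to LD were not. The range of Tnr over the 5 libraries was wider than that of 99.7% of expressed genes.

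Tnc, the paralog of Tnr, encodes tenascin-C, which is made by astrocytes and neural stem cell niches and binds lecticans as well. Its value was 8.59 in LD, 8.73 in CE, 8.54 in L-RUN, 8.46 in RUN and 8.47 in H-RUN. CE was highest, and the 3 running libraries lay below LD. RUN minus CE was -0.27 (technical SD 0.047), the 114th lowest of the expressed genes, whereas CE minus LD was 0.14 and RUN minus LD -0.13. The only step between neighbouring libraries larger than 3 technical SDs was that from LD to CE. Side by side, L-RUN minus LD was -0.05 for Tnc and -0.66 for Tnr, while H-RUN minus LD was -0.11 for Tnc and -0.09 for Tnr.

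Link proteins came next. Hapln4, a brain link protein found with brevican around neurons of the brainstem and cerebellum, was at 11.35 in LD, 11.46 in CE, 11.16 in L-RUN, 11.46 in RUN and 11.63 in H-RUN. The 2 pools of runners stood on opposite sides of LD, and RUN again lay between them. H-RUN minus LD was 0.28 (21.2%, 57th highest), L-RUN minus LD was -0.19 (-12.1%) and H-RUN minus L-RUN was 0.46 (37.9%, 26th highest), with a technical SD of 0.028. Neither difference from LD reached 0.3. Every step in the order L-RUN, LD, RUN, CE, H-RUN was larger than 3 technical SDs except that between RUN and CE, and its range exceeded that of 98.9% of expressed genes.

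Hapln1, the link protein whose loss leaves nets attenuated, was at 10.12 in LD, 10.01 in CE, 10.03 in L-RUN, 9.98 in RUN and 9.95 in H-RUN. LD was highest, and the differences from it ran from -0.08 in L-RUN to -0.17 in H-RUN (technical SD 0.04). No step between neighbouring libraries was larger than 3 technical SDs. Hapln2, a link protein of nodes of Ranvier where it accompanies a versican isoform, was at 6.84 in LD, 6.85 in CE, 6.80 in L-RUN, 6.82 in RUN and 6.84 in H-RUN. Its range of 0.049 was about as wide as its technical SD of 0.044, and 5.35% of expressed genes had a smaller one. It was also the least expressed of the 10 genes by value, and shrinkage acts most on such genes. Hapln4 and Hapln1 differed from LD with opposite sign in CE (0.11 and -0.11), RUN (0.11 and -0.14) and H-RUN (0.28 and -0.17), but with the same sign in L-RUN (-0.19 and -0.08).

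The lecticans had smaller differences, and none of the 4 was past 0.3 in any comparison. Bcan, encoding brevican, a proteoglycan of glial origin that coats synapses, was at 12.59 in LD, 12.67 in CE, 12.46 in L-RUN, 12.56 in RUN and 12.62 in H-RUN. L-RUN was lowest, at -0.13 from LD, and CE was highest, at 0.08 from LD, with a technical SD of 0.022. H-RUN exceeded L-RUN by 0.16. Ncan, encoding neurocan, was at 12.46 in LD, 12.53 in CE, 12.45 in L-RUN, 12.45 in RUN and 12.54 in H-RUN. Its values formed a lower trio of LD, RUN and L-RUN, which differed by less than 1 technical SD, and a higher pair of CE and H-RUN, with 0.07 and 0.08 above LD.

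Acan encodes aggrecan, the lectican on which the assembly of nets around parvalbumin neurons depends. It was at 7.65 in LD, 7.71 in CE, 7.67 in L-RUN, 7.70 in RUN and 7.80 in H-RUN. H-RUN stood highest, at 0.15 above LD (technical SD 0.047, 507th highest of expressed genes), and the other 4 libraries lay between 7.65 and 7.71. Vcan, encoding versican, was at 9.42 in LD, 9.45 in CE, 9.34 in L-RUN, 9.41 in RUN and 9.43 in H-RUN. Its lowest value was in L-RUN, at -0.08 from LD, and no step between neighbouring libraries was larger than 3 technical SDs for either gene. Across the 4 lecticans the median difference from LD was highest in CE (0.06) and H-RUN (0.05) and lowest in L-RUN (-0.04), with RUN at -0.01.

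Ptprz1 encodes a receptor tyrosine phosphatase whose secreted form, phosphacan, binds tenascins and other matrix ligands. Its value was 12.67 in LD, 12.65 in CE, 12.50 in L-RUN, 12.59 in RUN and 12.65 in H-RUN. L-RUN was lowest, and LD, CE and H-RUN differed by less than 1 technical SD of 0.022. The difference from LD was -0.17 in L-RUN (-11.1%) and -0.07 in RUN. The receptor and secreted forms share 1 gene-level value, as do the splice forms of Vcan, Bcan and Tnc, so a shift between forms is not seen here.

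Apart from Hapln4, for which there was no promoter entry, Tnr, Ptprz1 and Bcan had the lowest values of L-RUN minus LD. Their 250 bases before the RefSeq start (GRCm38.p6) are shown for that reason, so that their starts can be read side by side. Other members, such as Ncan, Vcan and Hapln2, also had their lowest value in L-RUN, and their windows are not shown. With the trend with transcript length removed, as described below, L-RUN minus LD was -0.0605 for Ptprz1 and -0.0749 for Hapln2. The choice of windows rests on the values before that removal. Bases run 5′ to 3′ on the strand of the gene, and capitals mark the GC box (GGGCGG) and the CCAAT box (CCAAT) on either strand. The core of the cAMP response element (TGACG) and the TATA box (TATAAA) were searched as well and were not in these 3 windows.
Tnr, chr1:159523519-159523768, + strand: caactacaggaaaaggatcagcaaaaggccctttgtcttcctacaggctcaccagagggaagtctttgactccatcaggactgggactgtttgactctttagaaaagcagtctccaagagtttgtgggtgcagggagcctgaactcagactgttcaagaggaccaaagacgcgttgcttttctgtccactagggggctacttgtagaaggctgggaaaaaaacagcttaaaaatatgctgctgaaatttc
Ptprz1, chr6:22875252-22875501, + strand: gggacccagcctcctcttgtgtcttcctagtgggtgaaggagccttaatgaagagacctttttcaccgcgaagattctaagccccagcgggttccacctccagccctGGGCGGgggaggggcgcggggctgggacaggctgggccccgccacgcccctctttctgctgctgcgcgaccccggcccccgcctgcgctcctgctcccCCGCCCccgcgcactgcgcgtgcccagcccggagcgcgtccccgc
Bcan, chr3:88000357-88000606, - strand: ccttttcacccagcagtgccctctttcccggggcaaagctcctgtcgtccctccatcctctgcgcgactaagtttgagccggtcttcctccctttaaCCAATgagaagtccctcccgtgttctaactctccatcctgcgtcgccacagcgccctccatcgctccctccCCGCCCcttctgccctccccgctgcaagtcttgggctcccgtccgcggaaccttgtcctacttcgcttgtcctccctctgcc

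These 3 starts differed in composition. The Tnr window was 46.8% G and C with 2 CpG and none of the 4 motifs, the Ptprz1 window 71.6% with 22 CpG and 2 GC boxes, and the Bcan window 62% with 16 CpG, 1 GC box and 1 CCAAT box. Over 32851 windows of the same length, the median was 52.4% with 6 CpG, and 32.7% held a GC box, 33.8% a CCAAT box, 17.8% the cAMP response element core and 12.4% a TATA box. Of the 10 genes, 9 had such an entry. The bases checked after the RefSeq start of Bcan were not found in any GENCODE transcript of the gene, so the 2 annotations place its start differently. The same held for Acan, whose window is not shown.

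**Figure D2:**
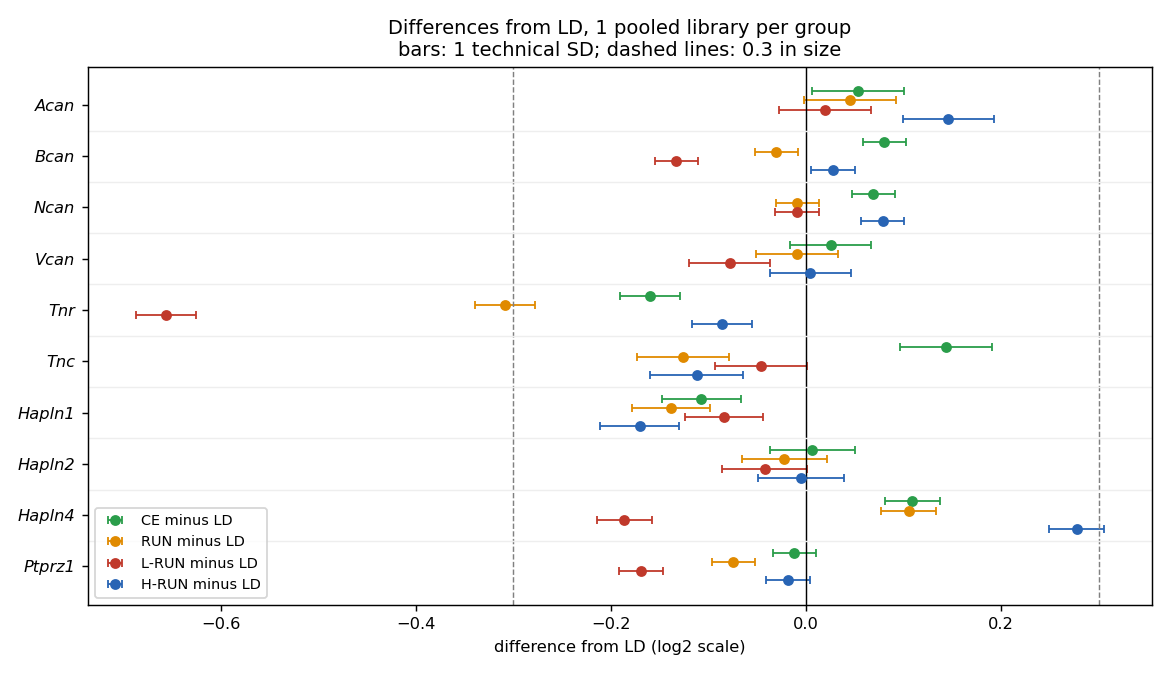
Difference from LD (log2 scale) of each of the 10 genes in CE, RUN, L-RUN and H-RUN, with bars of 1 technical SD and dashed lines at 0.3 in size. Past the lines lie Tnr in L-RUN (-0.66) and in RUN (-0.31), and no other point.

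The 10 genes were then read together against all expressed genes. In CE minus LD, 0 of 10 were past 0.3, against 0.598% of expressed genes, and 3 were below 0, against 50.8%. In RUN minus LD, 1 of 10 was past 0.3 (Tnr), against 1.31%, and 8 were below 0, against 50.7%. In L-RUN minus LD, 1 of 10 was past 0.3 (Tnr), against 3.13%, and 9 were below 0, against 50.7%. Of the 10, 4 differed there by more than 3 technical SDs, against 32.7% of expressed genes. Ncan, Hapln2 and Tnc lay within 1 technical SD of 0. With H-RUN minus LD, 0 of 10 were past 0.3, against 0.827%, and 5 were below 0, against 52%.

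Comparisons between the enriched groups gave the following. In H-RUN minus L-RUN, 2 of 10 were past 0.3 (Tnr and Hapln4), against 1.54% of expressed genes, and 2 were below 0 (Tnc and Hapln1), against 48.6%. In RUN minus CE, 0 of 10 were past 0.3, against 0.834%, and 10 were below 0, against 50.4%. Of these last 10 differences, that of Hapln4 was -0.0039 and that of Acan -0.01. Larger than 3 technical SDs were 4 of 10, Tnc (-0.27), Bcan (-0.11), Ncan (-0.08) and Tnr (-0.15), against 18.0% of expressed genes. The median over the 10 genes relative to LD was lowest in L-RUN (-0.08), followed by RUN (-0.03), H-RUN (-0.00041) and CE (0.04), and it was 0.11 in H-RUN minus L-RUN and -0.05 in RUN minus CE. The corresponding medians over all expressed genes lay between -0.0035 and 0.0028.

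Long genes as a whole had lower values than short ones relative to LD, and most of the 10 transcripts were long. The Spearman rho of the difference with transcript length, over 13451 expressed genes, was -0.51 in L-RUN, -0.49 in RUN, -0.37 in H-RUN and -0.33 in CE, each minus LD. It is given as a description, since genes are not independent and share the same libraries. The longest annotated transcripts of the 10 genes had a median of 7.15 kb, against 3.52 kb for expressed genes, with 12.4 kb for Vcan, 12.2 kb for Tnr, 8.07 kb for Ptprz1 and 3.65 kb for Hapln4.

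After the trend with length was removed, Tnr was at -0.51 in L-RUN minus LD and at 0.49 in H-RUN minus L-RUN. In RUN minus LD, however, it was at -0.20, which no longer passed 0.3, and with quantile normalization it was at -0.28 there. Hapln4, whose length is near the median, was at 0.28 in H-RUN and -0.18 in L-RUN, each minus LD. Ptprz1 in L-RUN moved from -0.17 to -0.06 and Vcan from -0.08 to 0.07. The number of genes below 0 became 6 of 10 in L-RUN minus LD, 5 in RUN minus LD and 8 in RUN minus CE. With quantile normalization these numbers were 8, 7 and 9.

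**Figure D3:**
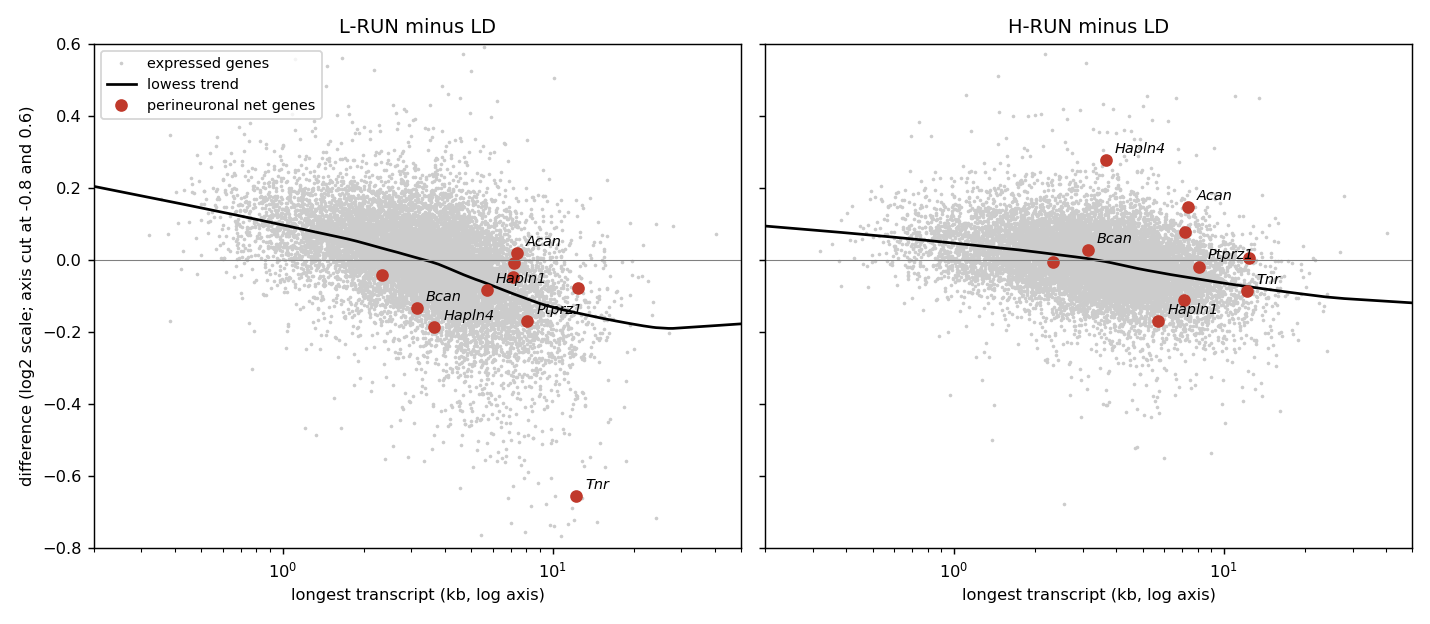
Difference from LD (log2 scale) in L-RUN and H-RUN against the longest transcript (kb, log axis) for expressed genes (grey), with a lowess trend (line) and the 10 perineuronal net genes (red). Tnr lay at -0.66 in L-RUN where the trend was at -0.15, and Hapln4 lay at 0.28 in H-RUN where the trend was near 0.

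RUN offered a check of library noise in each gene, since its pool held the mice of both other pools. RUN checks neither differences between mice nor those from LD. Its value lay between L-RUN and H-RUN in 9 of 10 genes, with Tnc the exception, against 58.3% of expressed genes. Such a place is more likely the farther apart L-RUN and H-RUN lie. For Tnr, RUN minus LD was -0.31 as sequenced and -0.34 as computed from an equal mixture. For Hapln4 these were 0.11 and 0.06, and for Ptprz1 -0.07 and -0.09. The largest departures were those of Tnc (-0.047) and Ncan (-0.04), and of all 10 genes Ncan alone departed by more than 2 of its residual SDs. These SDs were themselves taken from such departures over expressed genes.

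**Figure D4:**
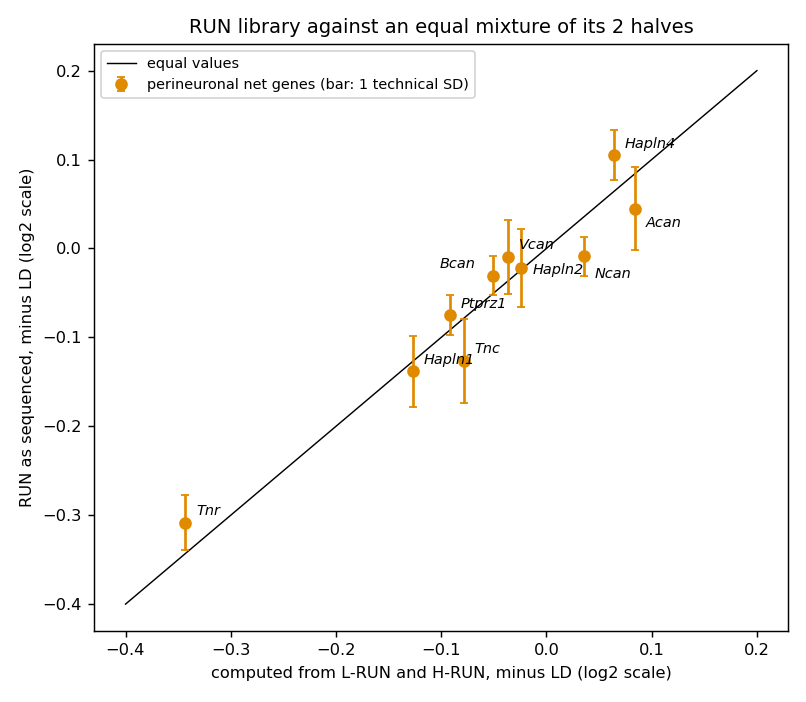
RUN minus LD as sequenced (vertical, log2 scale, bars of 1 technical SD) against the value computed from the 2 smaller pools in equal parts (horizontal, log2 scale) for the 10 genes, with the line of equal values. Tnr lies near the line at -0.31 against -0.34, and Ncan lies farthest below it in units of its SD.

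Levels between genes were compared per kb of transcript, as the rlog value minus log2 of the length of the longest transcript. In LD this gave 10.94 for Bcan, 9.65 for Ptprz1, 9.62 for Ncan, 9.48 for Hapln4, 7.60 for Hapln1, 7.37 for Tnr, 5.79 for Vcan, 5.76 for Tnc, 5.62 for Hapln2 and 4.77 for Acan. Brevican mRNA was therefore the most abundant of the 10 and aggrecan mRNA the least, on this scale, which takes every gene to use its longest transcript. In L-RUN, Hapln4 (9.30) and Tnr (6.72) kept their places in this order.

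Each of the 4 lecticans sits beside a link protein gene in the mouse genome (GRCm38, mm10). Bcan (chr3:87987531-88000230) lies 21.5 kb from Hapln2 (chr3:88021750-88027583), Vcan (chr13:89655312-89742509) 43.7 kb from Hapln1 (chr13:89539796-89611652) and Ncan (chr8:70093085-70120873) 2.22 kb from Hapln4 (chr8:70083457-70090862), each with 0 other coding genes between them. Acan (chr7:79053483-79115099) lies closest to its neighbour, 2 bp from Hapln3, whose values were below the minimum. The 3′ ends of this pair face each other, and the handling of strand in the counting is not known here. Whether neighbours had like values depended on the comparison. In H-RUN minus L-RUN, Ncan was at 0.09 and Hapln4 at 0.46, Vcan at 0.08 and Hapln1 at -0.09, and Bcan at 0.16 and Hapln2 at 0.04. In L-RUN minus LD, by contrast, Vcan and Hapln1 were both at -0.08, and in RUN minus LD Bcan was at -0.03 and Hapln2 at -0.02. The other members were Tnr (chr1:159523769-159931729, 23 exons in the longest transcript), Tnc (chr4:63959785-64047015) and Ptprz1 (chr6:22875502-23052916, 30 exons). The 3′ ends of Ncan and Hapln4 face each other and do not overlap in the annotation.

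Other genes of the matrix were examined by list, 73 in all, of which 66 were expressed. Past 0.3 were 2 higher and 0 lower in CE, 1 higher and 3 lower in RUN, 0 higher and 6 lower in L-RUN, and 1 higher and 2 lower in H-RUN, each relative to LD. Of all expressed genes, 0.332% were past 0.3 higher and 0.266% lower in CE, 0.362% and 0.952% in RUN, 0.797% and 2.33% in L-RUN, and 0.354% and 0.472% in H-RUN, so that calls over all genes leaned lower in the latter 3 as well. The medians of the 66 genes were 0.04, -0.0082, -0.03 and 0.0013 in CE, RUN, L-RUN and H-RUN in turn. In L-RUN the median of the 10 net genes was -0.08, lower than that of the 66 together. The list of net-associated and aggregating proteins was lower still, at -0.10, and the other lists lay between -0.04 and -0.01. With the length trend removed, the median of the 10 was -0.040 there, and none was computed for the 66.

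Among 12 expressed net-associated and aggregating proteins, Matn2, encoding the adaptor matrilin-2, was at 10.17 in LD, 10.09 in CE, 9.64 in L-RUN, 9.69 in RUN and 9.77 in H-RUN, with all 3 running libraries low. Spock2, encoding testican-2, a heparan sulfate proteoglycan, differed from LD by -0.53 in L-RUN, -0.40 in RUN and -0.29 in H-RUN. Nptx2, encoding a pentraxin that clusters AMPA receptors on parvalbumin neurons, was higher than LD by 0.20 in L-RUN, 0.32 in RUN and 0.42 in H-RUN, and by 0.01 in CE. Nptxr, encoding the neuronal pentraxin receptor, differed from LD by 0.34 in CE and -0.26 in L-RUN. Hapln3, the remaining link protein gene, was below the minimum, at 4.71 to 4.81.

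Of 11 expressed proteases and inhibitors, Adamts1, a protease that cleaves lecticans, was lower in every other library than in LD, at -0.36 in RUN, -0.35 in L-RUN, -0.32 in H-RUN and -0.20 in CE, whereas the other lectican-cleaving genes Adamts4, Adamts5 and Adamts15 were not past 0.3. Timp2, an inhibitor of metalloproteinases, was at 0.37 in CE and -0.15 in H-RUN. Of 20 genes of chondroitin sulfate synthesis and sulfation, 1 was past 0.3, Xylt1, which starts the chain, at -0.33 in L-RUN. No gene of 6 for hyaluronan was, and the hyaluronan receptor Cd44 came nearest, at 0.299 in CE. Of 17 receptors and ligands, Itgb8 (-0.39) and Nrcam (-0.31) were past 0.3 in L-RUN, and Itgb8 was higher in H-RUN than in L-RUN by 0.43.

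**Figure D5:**
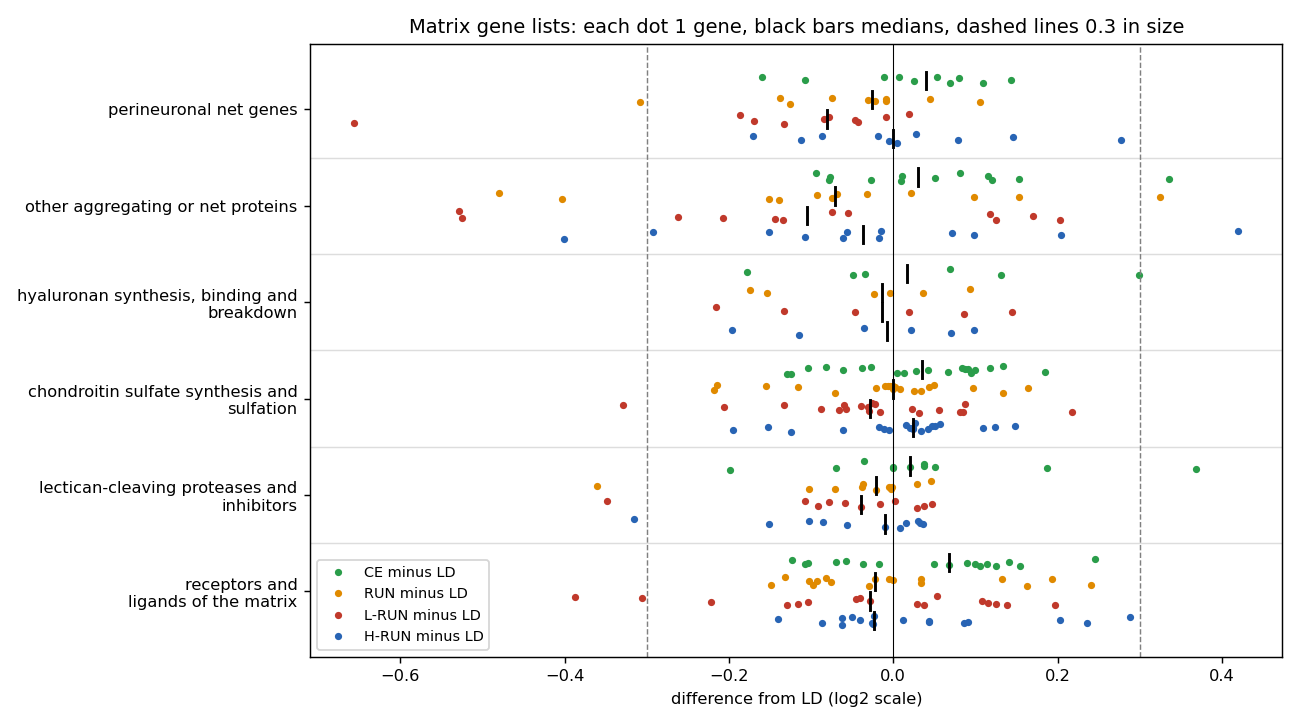
Differences from LD (log2 scale) of the 10 perineuronal net genes and of 5 lists of other matrix genes in CE, RUN, L-RUN and H-RUN, 1 dot per expressed gene, black bars for medians and dashed lines at 0.3 in size. In L-RUN, 6 of 66 other matrix genes and 1 of 10 net genes lie at or below the lower line.

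Markers of the cells that make or carry nets are set beside these values as summed linear levels relative to LD. The 8 markers of parvalbumin and GABA neurons lay between 0.973 (L-RUN) and 1.01 (CE), with none past 0.3, and Pvalb itself at 8.57 to 8.69. This sum weighs Gad1 most, which was at 13.28 in LD and differed from LD by 0.03 in L-RUN. In L-RUN 6 of 8 were below LD, with a median of -0.05, while Lhx6 was at 0.15. Markers of CA2 and CA3 pyramidal cells lay between 1.03 and 1.08, and those of dentate granule cells between 0.950 and 0.996. Single markers moved apart within these lists. Prox1, a granule cell marker, differed from LD by -0.41 in L-RUN, while C1ql2, another, was at 0.37 in both RUN and L-RUN and at 0.40 in H-RUN. Erbb4 was the farthest from LD of the GABA neuron markers, at -0.24 in L-RUN, and Bok that of the CA2 and CA3 markers, at 0.41 in H-RUN. In L-RUN, 3 of 7 CA2 and CA3 markers were below LD. Rgs14 was at -0.29 there, whereas Pcp4 was at 0.30 and Amigo2 at 0.20. Pcp4 weighs most in that sum, with 12.10 in LD.

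Summed markers of astrocytes and of myelinating oligodendrocytes were lowest in L-RUN. The 9 astrocyte markers were at 0.919 in CE, 0.845 in L-RUN, 0.909 in RUN and 0.972 in H-RUN. This sum weighs Slc1a2 most, which had the highest value of the list (16.06 in LD) and differed from LD by -0.36 in L-RUN. With Slc1a3 (-0.30), 2 of 9 were past 0.3 in L-RUN, while Gfap was at -0.05, Aldh1l1 at -0.04 and Aldoc at 0.02, and the median of the list was -0.09.

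The 8 markers of myelinating oligodendrocytes were summed at 0.933 in CE, 0.862 in L-RUN, 0.919 in RUN and 0.977 in H-RUN. All 8 were below LD in L-RUN, with a median of -0.18, and none was past 0.3, Mbp being farthest at -0.23. Markers of oligodendrocyte precursors lay between 1.004 and 1.08, with Olig1 farthest from LD at 0.19 in CE. Tnr in L-RUN was at -0.66, or at -0.51 with the length trend removed, and no such values are given for the markers. The part of these cells in the values of Tnr, Bcan and Ptprz1 was not tested.

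L-RUN also stood apart in 10 markers of leptomeningeal fibroblasts, summed at 1.61 relative to LD (1.15 in CE, 1.24 in RUN, 0.912 in H-RUN). In L-RUN 7 were higher by more than 0.3, namely Igf2 (1.096), Fmod (1.01), Aldh1a2 (0.76), Slc6a13 (0.69), Col1a2 (0.67), Slc22a6 (0.63) and Col1a1 (0.40). In RUN 6 were, in CE 3, and in H-RUN 0, where Dcn was at -0.52.

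The 5 markers of CA1 pyramidal cells were summed at 1.09 in CE, 0.775 in L-RUN, 0.864 in RUN and 0.938 in H-RUN. In L-RUN 4 of 5 were lower by more than 0.3, Fibcd1 (-0.46), Pou3f1 (-0.42), Wfs1 (-0.33) and Mpped1 (-0.33), with Man1a at -0.29. In H-RUN the sum rested on Fibcd1 (-0.52) and Mpped1 (-0.12), while Wfs1 (0.18), Pou3f1 (0.10) and Man1a (0.08) were above LD and the median was 0.08. Fibcd1 was past 0.3 in CE (0.31) and RUN (-0.46) as well.

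Choroid plexus markers lay between 0.999 and 1.19, with Ttr at 0.62 in CE. Only 2 of these 5 markers, Ttr and Kl, were expressed, and Kl was at 0.03 in CE. Endothelial markers lay between 0.944 and 0.99985, with Flt1 at -0.43 in L-RUN and -0.31 in RUN. Ly6c1 went the other way, at 0.20 in L-RUN and 0.13 in RUN. Below LD were 3 of 5 endothelial markers in L-RUN and 2 of 5 in RUN. Microglial markers lay between 0.905 and 0.935, with Csf1r farthest from LD at -0.25 in L-RUN. None of the markers was listed at 0. The part of neighbouring tissue in the L-RUN values was not tested.

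Expressed genes whose 4 differences from LD were nearest to those of Tnr were Ppp1r12b, Ksr2, Ndst1, Ppm1l and Prkcb, with a mean absolute difference of 0.027 to 0.06. For Ppp1r12b the differences were -0.62 in L-RUN, -0.30 in RUN, -0.18 in CE and -0.13 in H-RUN. With the trend with length removed, the nearest were Cpeb4, Ppp1r12b, Ksr2, Prepl and Dlgap2. Within the 10 genes, Vcan and Hapln2 were nearest by this measure (0.019) and Tnr and Hapln4 farthest apart (0.38). These distances describe 4 values per gene that share 1 LD library.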

How the data were processed

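RNA of 5 pools of mouse DG was measured by polyA RNA-seq (TruSeq), 1 library per pool. Per the labels and the study's methods, the authors processed reads with CASAVA 1.8.2, trimmed adapters, mapped to mm10 with TopHat2 2.0.10 and counted on RefSeq genes with HTSeq. DESeq2 1.10.1 was then used by the authors to normalize all libraries together, and the deposited values are regularized logs (log2), with 1 value for a gene in each library. Read counts and depth are not in the files used here, so no count model, interval or detection floor was computed. Handling of strand is not given in the sources used here.

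Groups were taken from the titles of the samples. Each comparison was the difference of 2 libraries, called at 0.3 in size and read against expressed genes (mean value of at least 5), with no test. The technical SD came from the median absolute deviation of RUN against log2 of the linear mean of L-RUN and H-RUN, per decile of expression, with the residual variance divided by 1.5 and doubled for a difference. This assumes equal noise in the 3 libraries and equal parts of both smaller pools in RUN. Lengths and positions came from GENCODE M21 (GRCm38), and 99.3% of expressed genes had a length. The length trend was a lowess curve (fraction 0.3) over log2 length. Promoters came from RefSeq (GRCm38.p6).

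The members and all gene lists were chosen with earlier results of these data known. Named were all 10 members, genes of the lists of other matrix genes and cell type markers past 0.3 in a difference from LD or largest in their list, and the 5 genes nearest to a member past 0.3, which was Tnr. Further markers were added after their values were seen, mainly where they go against the sum of their list. Not every such marker is named. The lists were net-associated and aggregating proteins, hyaluronan, chondroitin sulfate synthesis, proteases and inhibitors, receptors and ligands, and markers of parvalbumin and GABA neurons, astrocytes, oligodendrocyte precursors, myelinating oligodendrocytes, granule cells, CA1, CA2 and CA3 pyramidal cells, leptomeningeal fibroblasts, choroid plexus, endothelium and microglia. Marker sums are of 2 to the power of the value.

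Alternatives were cut-offs of 0.2 and 0.4, centring on the median, quantile normalization, removal of the length trend, an average of LD and CE in place of LD, RUN computed as a mixture, a minimum mean of 7, no minimum, and a mixture on the log scale. The scripts were tested on simulated data. Tables were handled with pandas 2.3.3 and numpy 2.4.6 in Python 3.11.15, rank correlations with scipy 1.17.1, lowess curves with statsmodels 0.14.6, and plots with matplotlib 3.10.9.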

Additional observations from a re-analysis of the deposited data

Results flagged for a closer look

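Hapln4 lay below LD in L-RUN, by -0.19 (-0.1865), and above LD in H-RUN, by 0.28 (0.2773), on the log2 scale. It was picked out because the 2 pools of runners lay on opposite sides of LD, each by more than 3 technical SDs. Passing 3 technical SDs was common: 32.7% of expressed genes did so for L-RUN minus LD and 18.8% for H-RUN minus LD. How many expressed genes did so in both, with opposite signs, was not counted, so the rule does not mark Hapln4 as rare. With 1 pooled library per group, the difference of Hapln4 was not tested between the pools.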

How the results depend on the processing

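No paired analysis was possible because each group had 1 pooled library, and for the same reason no library could be left out. With a cut-off of 0.4, quantile normalization, removal of the length trend, or an average of LD and CE in place of LD, 0 of 10 genes were past the cut-off in RUN minus LD, since Tnr was then at -0.28 (quantile), -0.20 (length) and -0.23 (baseline). At a cut-off of 0.2, the count became 1 in H-RUN minus LD (Hapln4) and 1 in RUN minus CE (Tnc). With the length trend removed, the median over the 10 genes was 0.089 in CE minus LD, -0.040 in L-RUN minus LD and 0.063 in H-RUN minus L-RUN. Every other count of genes past the cut-off kept its side under the alternatives run. The number of 10 genes below 0 moved from 8 to 5 in RUN minus LD and from 9 to 6 in L-RUN minus LD with the length trend removed, and from 5 to 4 (length) or 7 (baseline) in H-RUN minus LD. Every other median kept its sign except that of H-RUN minus LD, which lay between -0.0084 and 0.029. Tnr in L-RUN minus LD stayed past 0.3 and 0.4, at -0.51 with the length trend removed and -0.58 against LD and CE. Differences between mice, shrinkage of low genes and the unknown depth limit all values.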
